A study of Mus musculus with 13 samples.

Results

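Serotonin, dopamine, noradrenaline, acetylcholine and ATP each act on families of cell surface receptors. Transcripts of 49 such receptor genes were examined in the cerebral meninges of newborn mice. They were taken by gene symbol as the serotonin (Htr), dopamine (Drd), adrenergic (Adra, Adrb), muscarinic (Chrm), nicotinic (Chrn), P2X (P2rx) and adenosine (Adora) receptors. No gene of these names was picked or dropped for its change in the mutants, though these families were chosen with earlier results of these data known. The mouse annotation of RefSeq holds 60 genes of these names, of which 49 had a probe set with 1 gene symbol, among 19938 genes tested on the arrays. The remaining 11, which are the adenosine receptors, the beta-adrenergic receptors and the alpha-adrenergic receptors other than Adra1b and Adra2c, were not analysed here.

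The receptors fall into 2 kinds. The serotonin 5-HT3 receptors, the nicotinic receptors and the P2X receptors are ion channels that open within moments of binding their ligand, and each is assembled from several subunits. The others are seven-pass membrane proteins that act through G proteins: Gs raises cyclic AMP, Gi lowers it and Gq releases calcium through phospholipase C. In the brain they are carried mainly by neurons, while vessels, glia, macrophages and muscle carry some of them.

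The meninges are the membranes that cover the brain. They were dissected from the cerebrum of 13 pups of 1 litter of strain C57BL6 as labelled (C57BL/6J in the study's methods), with 1 array per pup. The 4 mutants were Pdgfc-/-; Pdgfra GFP/+, that is, without the ligand PDGF-C and with GFP at a single copy of the gene of its receptor. The 9 controls were their littermates of every other genotype, a pool that includes Pdgfc+/+, Pdgfc+/- and Pdgfc-/- pups without GFP and Pdgfc+/+ and Pdgfc+/- pups with Pdgfra GFP/+, and the genotype of each control is not given. The values are intensities on a linear scale, compared as log2(intensity + 16) with limma, so that folds are on that scale and are smaller than the ratio of intensities for dim genes. A gene is said to have risen or fallen in the mutants at a Benjamini-Hochberg adjusted p under 0.05 over all tested genes.

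The targeted gene Pdgfc was at 164 ± 86.8 (SD, n = 9) in control and at 25.7 ± 3.41 (SD, n = 4) in mutant meninges (limma, adjusted p = 0.00772), although control 2, at 5.88, lay below every mutant. The median of an array ran from 56.0 to 89.7 in mutants and from 44.1 to 89.0 in controls. The pups also differed in sex: Xist, expressed in females, was at 2.24 to 4.77 in the mutants and at 4.78 to 1020 in the controls. No mutant had the high Xist found among the controls. The sexes were thus not balanced between the groups, and differences by sex and by genotype cannot be fully told apart. Genes shared by most neurons were far higher in the mutant samples, since 12 of 12 such markers rose and their summed intensity was 11841 to 14871 in mutants against 1402 to 3795 in controls. How precise the values below are depends on the number of arrays. In dissected tissue, fewer cells of a type and less RNA per cell cannot be told apart.

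Of the 49 receptor genes 5 rose in mutant meninges, which is 10.2% of them, beside 8.58% of all tested genes. The 5 were the serotonin receptors Htr3a and Htr2a, the muscarinic receptors Chrm3 and Chrm2 and the nicotinic subunit Chrnb2. A single receptor gene, the ATP-gated channel P2rx4, fell, which is 2.04% beside 6.31% of all tested genes. The other 43, or 87.8%, did not pass the test. An unadjusted p under 0.05 was found for 9 of the 49, beside 23.6% of all tested genes. The 2 groups of mice did not overlap for 7 receptor genes (14.3%, beside 9.44% of all tested genes). The median log2 fold change was 0.02 over the receptor genes and 0.0043 over all tested genes. The split of 5 rises to 1 fall became 5 to 6 with each array centred on its median and 7 to 6 after quantile normalization.

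Most receptor genes were dim. Genes of olfactory receptors, which are expressed in the nose, served as a guide to how bright a silent probe set can be. Of 1015 of them, 95% had a mean (on the log2 scale, over all 13 mice) at or under an intensity of 60.5. By the same mean 29 of the 49 receptor genes lay at or under that level and 42 lay in the dimmest 50% of tested genes. Of the 20 above it, Chrm3 and Htr2a rose and P2rx4 fell. The mean counts the mutants too. The control means of Chrm3 (34.3) and Htr2a (54.1) lay under 60.5, so both passed the level only through the mutants. Their rises are therefore not evidence about receptors expressed in control meninges. Among all 12655 genes above that level 11.2% rose and 9.41% fell.

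**Figure D1:**
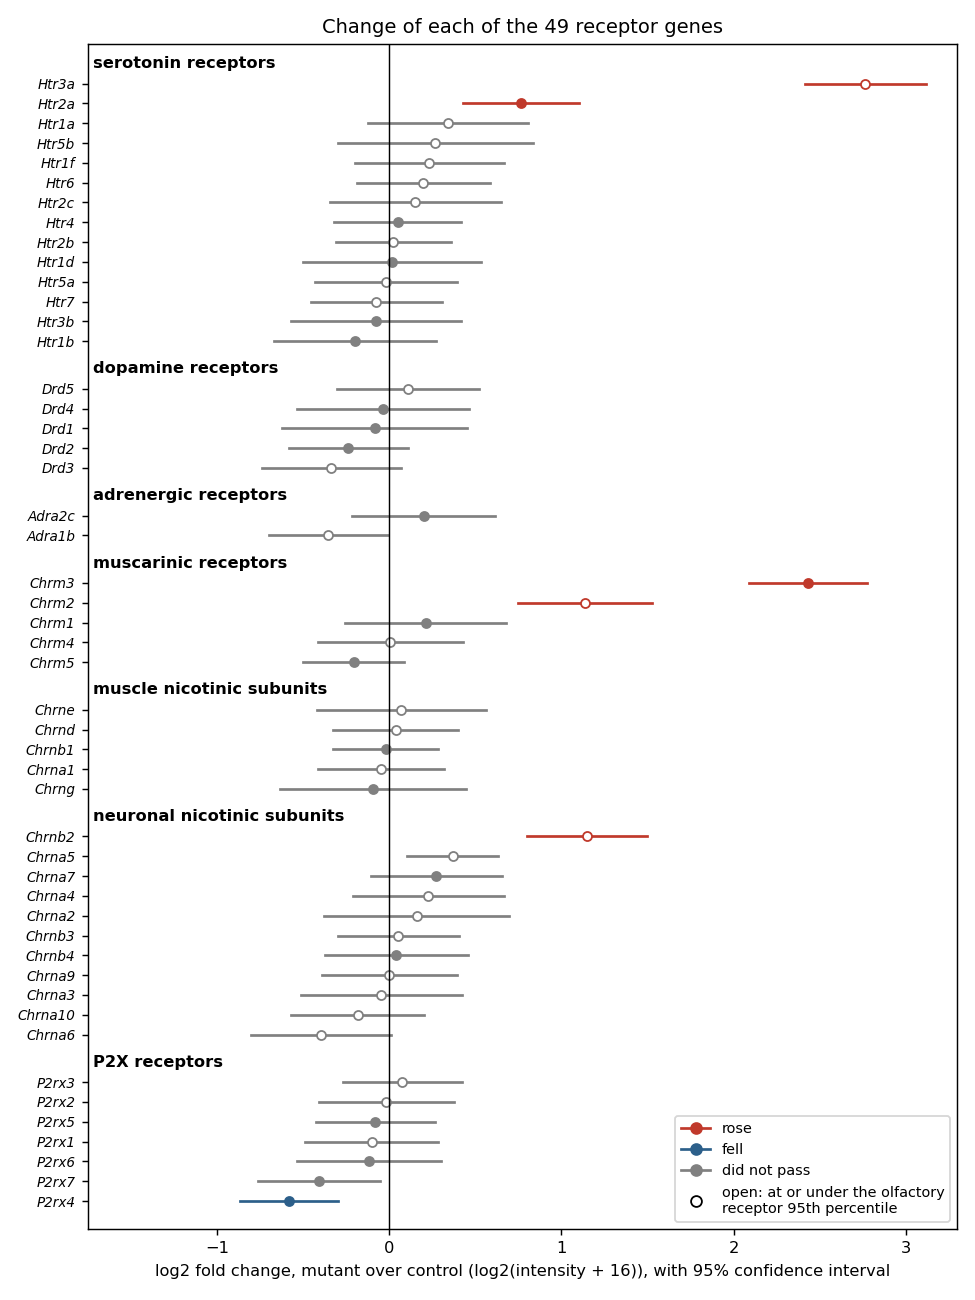
Log2 fold change of each receptor gene, mutants over controls, with its 95% confidence interval from limma (x axis, log2 of intensity + 16), by receptor family. Filled points mark genes whose mean over all mice lies above the 95th percentile of olfactory receptor genes and open points the others. The 43 genes without a call lie between -0.41 and 0.37, with the 5 rises above them and P2rx4 below, at -0.58. The interval of P2rx4 (-0.86 to -0.30) overlaps that of P2rx7 (-0.76 to -0.05).

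The promoters of genes that moved are shown for what they share. For each gene the 250 bases before a listed start in assembly GRCm38.p6 were searched on both strands for 4 motifs. The start used need not be the outer end of the annotated gene. The motifs were GGACAG and CAGCACC, 2 stretches of RE1, GGGCGG (the GC box) and TATAAA (the TATA box). RE1 is the site of REST, which keeps neuronal genes silent outside neurons. A window was found for 38 of the 49 genes, and Htr3a was without one. Capitals mark a match on either strand.

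Chrm3 (chr13:10360804-10361053) and Chrnb2 (chr3:89764633-89764882) lie on the minus strand. Chrm2 (chr6:36387834-36388083), Htr2a (chr14:74640624-74640873) and P2rx4 (chr5:122707294-122707543) lie on the plus strand. Each sequence runs towards the start that was used. The Chrm3 window lies inside the annotated gene, which begins at 10361062. The windows of Chrm2 and P2rx4 run past the annotated gene starts at 36387991 and 122707518. The marked stretches of Chrm3 and Chrm2 thus lie inside the genes.
Chrm3: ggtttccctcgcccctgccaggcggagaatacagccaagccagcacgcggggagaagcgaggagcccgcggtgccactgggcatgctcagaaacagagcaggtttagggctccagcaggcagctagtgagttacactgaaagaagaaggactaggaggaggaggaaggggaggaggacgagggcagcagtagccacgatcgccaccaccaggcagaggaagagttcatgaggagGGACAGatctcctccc
Chrm2: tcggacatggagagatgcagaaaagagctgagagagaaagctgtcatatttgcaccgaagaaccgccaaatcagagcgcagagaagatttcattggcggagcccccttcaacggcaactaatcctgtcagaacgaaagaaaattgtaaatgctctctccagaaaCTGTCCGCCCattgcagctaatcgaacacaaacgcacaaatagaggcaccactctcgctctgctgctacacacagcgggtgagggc
Htr2a: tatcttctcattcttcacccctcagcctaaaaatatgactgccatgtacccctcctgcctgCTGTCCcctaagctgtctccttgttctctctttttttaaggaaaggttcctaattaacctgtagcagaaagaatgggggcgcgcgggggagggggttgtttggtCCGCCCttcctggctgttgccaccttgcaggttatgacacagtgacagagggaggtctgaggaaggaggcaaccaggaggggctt
Chrnb2: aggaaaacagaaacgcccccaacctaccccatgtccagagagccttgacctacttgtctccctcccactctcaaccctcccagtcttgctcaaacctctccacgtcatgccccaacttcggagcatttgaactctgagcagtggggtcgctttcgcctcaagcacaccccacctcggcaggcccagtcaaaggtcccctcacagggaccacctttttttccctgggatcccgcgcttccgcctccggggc
P2rx4: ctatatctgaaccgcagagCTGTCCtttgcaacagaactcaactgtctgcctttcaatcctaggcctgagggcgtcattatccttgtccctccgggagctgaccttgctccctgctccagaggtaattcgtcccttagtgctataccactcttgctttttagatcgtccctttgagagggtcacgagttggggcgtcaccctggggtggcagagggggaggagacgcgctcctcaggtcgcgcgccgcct

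GGACAG was present for Chrm3, Chrm2 and Htr2a, which rose, and also for P2rx4, which fell. It was found for 13 of the 38 receptor genes with a window (34.2%) and in 18.7% of 32851 windows of all genes. A receptor gene counted if any of its windows matched, and the other share is of single windows. The 2 shares are therefore of unlike units and do not measure an excess. CAGCACC, in 5.73% of all windows, was found for 4 receptor genes (Chrm4, Chrna9, Chrna10 and Htr1f), none of them called. The GC box was found for Chrm2, where it overlaps GGACAG on the minus strand, and for Htr2a. It was found for 18 of the 38 receptor genes (47.4%) and in 32.7% of single windows, again unlike units. The TATA box, in 12.4% of all windows, was found for Chrnb1 and P2rx6. Chrnb2 held none of the 4 motifs. The matches are of letters only and do not show that a factor binds.

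Serotonin receptors. Htr3a encodes the subunit of the 5-HT3 channel without which no such channel forms, and in the cortex it is carried by a class of inhibitory interneurons. It had the largest fitted change of the 49 genes. Its intensity was 220 in mutant 1, 300 in mutant 2, 202 in mutant 3 and 290 in mutant 4, against 12.2, 22.0 and 44.0 in the lowest, median and highest control. All 4 mutants thus lay far above every control, and every control lay under the olfactory receptor level of 60.5, so that the fold is no exact value. The means were 253 ± 49.3 (SD, n = 4) and 23.8 ± 8.92 (SD, n = 9), a fitted rise of 6.80-fold (log2 fold change 2.77, standard error 0.17, limma, adjusted p = 7.17e-10), with log2 values of 2.35 to 3.41 over the alternatives. Htr3b, the gene of the partner subunit, had a log2 fold change of -0.08, with intensities of 52.5 to 130 in mutants and 39.3 to 120 in controls.

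Htr2a encodes a Gq-coupled receptor found on cortical neurons and on smooth muscle. Its intensity was 120, 90.7, 91.5 and 103 in mutants 1 to 4, against 32.5, 52.4 and 72.8 in the lowest, median and highest control. The groups did not overlap, but the gap between them was small beside that of Htr3a. The rise was 1.70-fold (log2 fold change 0.76, standard error 0.16, limma, adjusted p = 0.00202). With the replicate number as a block its adjusted p was 0.0603. The other 12 serotonin receptors (Htr1a, Htr1b, Htr1d, Htr1f, Htr2b, Htr2c, Htr3b, Htr4, Htr5a, Htr5b, Htr6 and Htr7) did not pass the test, at log2 fold changes from -0.20 to 0.34. The highest was Htr1a, a Gi-coupled receptor that also sits on serotonin neurons themselves, at 36.0 to 72.3 in mutants and 14.4 to 59.4 in controls. Htr2c, a receptor that choroid plexus expresses strongly, was at 31.2 to 58.3 in mutants and 7.36 to 64.5 in controls.

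Muscarinic receptors. These 5 receptors bind acetylcholine and act through Gq (Chrm1, Chrm3, Chrm5) or Gi (Chrm2, Chrm4). Chrm3, which neurons, smooth muscle and glands use, was at 247, 213, 216 and 348 in mutants 1 to 4. The lowest, median and highest control were at 21.7, 32.5 and 48.7, so that the dimmest mutant lay well above the brightest control. Every control was again under 60.5. The means were 256 ± 63.3 (SD, n = 4) and 34.3 ± 9.44 (SD, n = 9), a fitted rise of 5.40-fold (log2 fold change 2.43, standard error 0.16, limma, adjusted p = 2.29e-09), with log2 values of 2.11 to 2.88 over the alternatives.

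Chrm2, which slows the heart and curbs the release of acetylcholine from nerve endings, was dimmer. Its intensity was 76.3, 57.1, 45.3 and 82.0 in mutants 1 to 4 against 8.61, 20.9 and 40.9 in the lowest, median and highest control. The highest control and the lowest mutant were close, and the mutants lie on either side of the 60.5 that marks the olfactory receptors. The rise was 2.20-fold (log2 fold change 1.14, standard error 0.19, limma, adjusted p = 1.68e-04). Chrm1, Chrm4 and Chrm5 did not pass the test, with log2 fold changes of 0.21, 0.01 and -0.21. For Chrm1, the main muscarinic receptor of the adult forebrain, the interval ran from -0.25 to 0.68.

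Nicotinic receptors. Chrnb2 encodes the beta2 subunit, which pairs with alpha4 in most high-affinity nicotinic receptors of the brain. Its intensity was 67.1, 50.9, 48.9 and 57.3 in mutants 1 to 4, against 7.82, 15.0 and 29.1 in the lowest, median and highest control. The groups were clearly apart, though the mutant mean of 56.1 ± 8.19 (SD, n = 4) lies under the olfactory receptor level of 60.5. The rise was 2.22-fold (log2 fold change 1.15, standard error 0.17, limma, adjusted p = 3.55e-05). The partner subunit Chrna4 was at 30.2 to 76.2 in mutants and 19.4 to 59.2 in controls, a log2 fold change of 0.23 with an interval from -0.21 to 0.67.

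Chrna5 encodes an accessory subunit that joins such receptors. It was at 25.4, 25.6, 26.0 and 34.7 in mutants 1 to 4 and at 11.4, 18.1 and 24.7 in the lowest, median and highest control. The groups did not overlap, by a margin of less than 1 unit of intensity, and the difference did not pass the test (log2 fold change 0.37, standard error 0.13, limma, adjusted p = 0.0579). The other neuronal subunits (Chrna2, Chrna3, Chrna6, Chrna7, Chrna9, Chrna10, Chrnb3 and Chrnb4) did not pass either, at log2 fold changes from -0.40 for Chrna6 to 0.27 for Chrna7, the subunit of the calcium-permeable homomeric receptor. The receptors of skeletal muscle are built of Chrna1, Chrnb1, Chrnd, Chrng and Chrne. None of these 5 passed the test, at -0.09 to 0.07, and 0 of 10 skeletal muscle markers were called.

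Dopamine and adrenergic receptors. None of the 5 dopamine receptors passed the test. Drd1 was at 161 to 325 in mutants and 111 to 371 in controls, and Drd2 at 200 to 406 and 273 to 445. Their log2 fold changes were -0.08 and -0.24, with intervals from -0.62 to 0.45 and from -0.58 to 0.11. Drd3, Drd4 and Drd5 had values of -0.34, -0.04 and 0.11. A list of 8 measured markers of striatal projection neurons, which includes Drd1 and Drd2, had 0 calls. Adra1b, a Gq-coupled receptor that contracts vessels, was at 30.9 to 55.2 in mutants and 37.3 to 83.1 in controls (log2 fold change -0.35, limma, adjusted p = 0.198, unadjusted 0.0454). Adra2c, a Gi-coupled receptor that restrains noradrenaline release, had a log2 fold change of 0.20.

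P2X receptors. P2rx4 encodes an ATP-gated channel found on macrophages, microglia and endothelium. It was at 125, 170, 116 and 194 in mutants 1 to 4, against 203, 228 and 257 in the lowest, median and highest control. All 4 mutants lay below every control, with mutant 4 close to the lowest of them. The means were 151 ± 37.0 (SD, n = 4) and 230 ± 21.5 (SD, n = 9), a 1.49-fold fall (log2 fold change -0.58, standard error 0.14, limma, adjusted p = 0.00494). The call was lost with the replicate number as a block (adjusted p = 0.0570) and in a test with unequal variances (0.198).

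P2rx7, the ATP channel of macrophages whose opening leads to release of interleukin-1, was at 87.5 to 175 in mutants and 123 to 223 in controls. The groups overlapped and it did not pass the test (log2 fold change -0.41, limma, adjusted p = 0.132). P2rx1, P2rx2, P2rx3, P2rx5 and P2rx6 had values from -0.12 to 0.08. P2rx3, a channel of sensory neurons, is the only receptor gene of the 49 with a second probe set, which gave 0.12 beside 0.08.

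**Figure D2:**
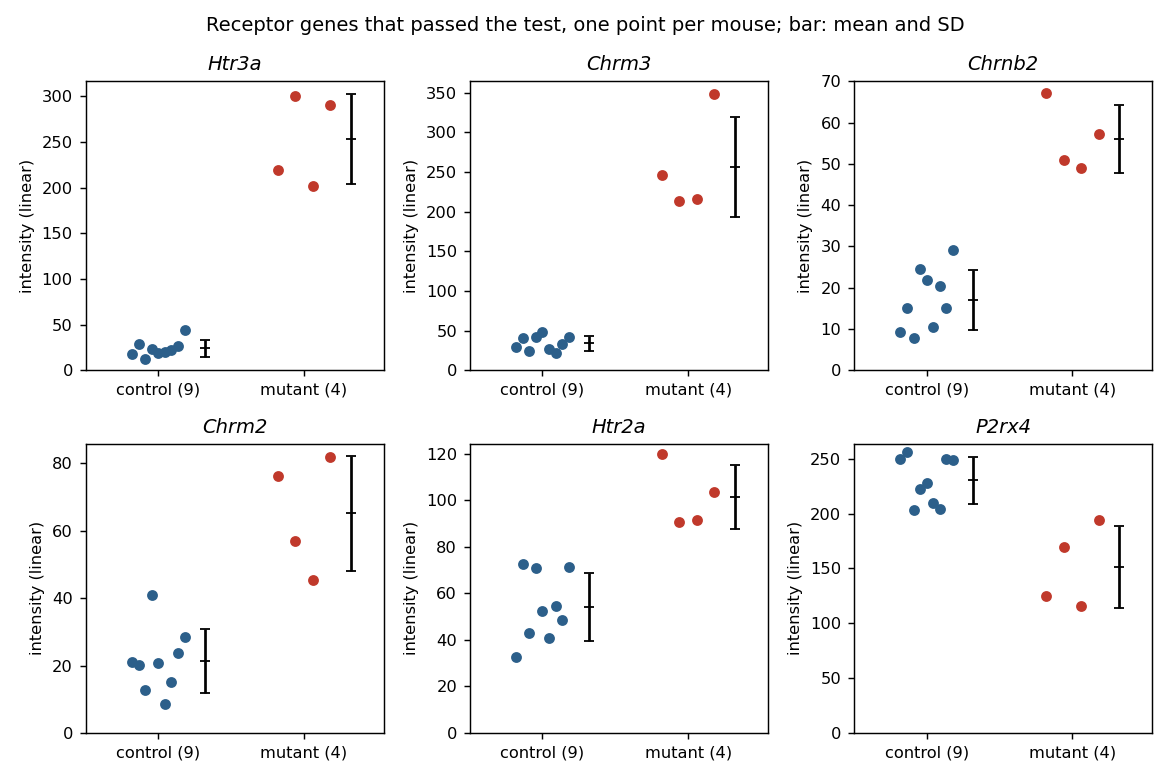
Linear intensity (y axis, from 0) of the 6 receptor genes that passed the test, a point for each mouse, beside the mean and SD of its group (9 controls and 4 mutants). Htr3a, Chrm3, Chrnb2, Chrm2 and Htr2a were higher in every mutant than in any control, and P2rx4 was lower.

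Counted by mechanism, 0 of 5 Gs-coupled, 1 of 11 Gi-coupled (Chrm2) and 2 of 7 Gq-coupled receptors (Htr2a and Chrm3) rose, beside 8.58% of all tested genes. None of these fell in the fit reported, beside 6.31% of all tested genes, but falls were called after quantile normalization (1 Gi and 2 Gq), with arrays centred on their median or with array weights (2 Gi and 1 Gq) and without the 4 dimmest arrays (1 of each). Htr5b was placed in no class. Of the 25 channel subunits 2 rose and 1 fell. On the fitted scale, the 95% confidence interval of all 43 receptor genes without a call lay within a 2-fold change in either direction. For 26 of them it lay within 1.5-fold. Folds on that scale are smaller than the ratio of intensities for dim genes, and most receptor genes were dim. For genes near or under the olfactory receptor level the intervals therefore do not bound the change in transcript.

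Among the genes without a call, the same few mice were mostly the lowest and the highest of their group. The lowest control was control 6, the dimmest array, for 33 of the 43 genes and control 1, 3 or 6 for all of them. The highest control was less fixed: control 4 for 20 genes, control 9 for 17, control 5 for 5 and control 2 for 1. The highest mutant was mutant 1, the brightest array, for 35 of the 43 genes and mutant 1 or 4 for all of them. The share of this spread that array brightness accounts for was not tested.

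**Figure D3:**
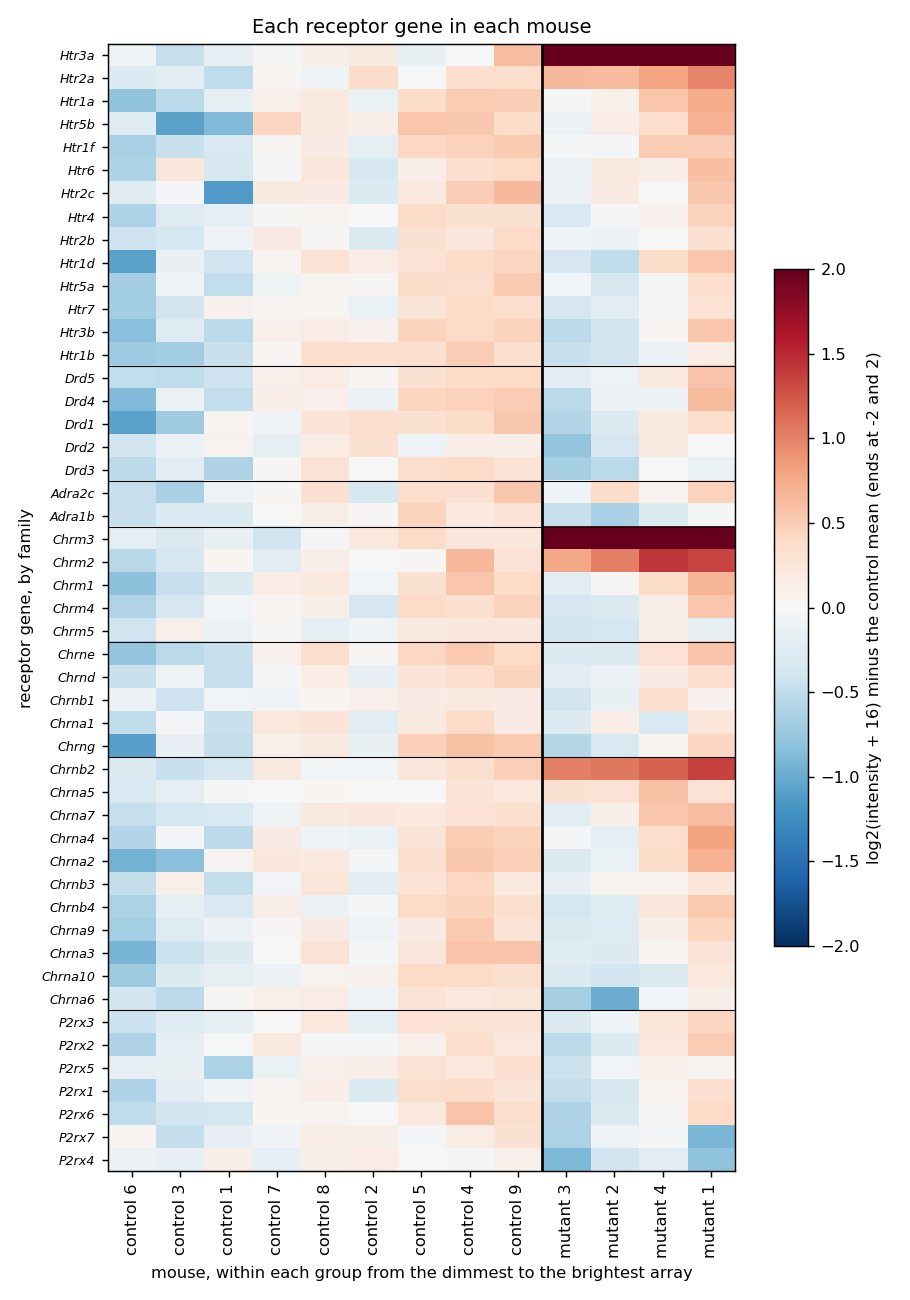
Each receptor gene (rows, by family) in each mouse (columns, within each group from the dimmest to the brightest array), as log2(intensity + 16) minus the mean of the controls. The rows of Htr3a, Chrm3, Chrm2, Chrnb2 and Htr2a are high in all 4 mutants, and most other rows run from low to high with the brightness of the array.

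Other genes that act with these receptors moved in part. For Gnal, Plcb1, Caln1, Rgs7, Grk3, Ly6h, Tmem35a, Ric3 and Slc29a4 the mean of the controls lay under 60.5, so their folds are fitted values and not exact ones. Of 20 G protein subunits and effectors 8 rose and 2 fell. Gnal, the Gs-like subunit of the striatum and olfactory system, rose 4.95-fold, Gnao1, the abundant Go subunit of neurons, 4.46-fold, Plcb1, the phospholipase that Gq activates, 3.11-fold and the calcium-stimulated cyclase Adcy1 2.61-fold. The falls were Adcy5 (1.85-fold) and Plcb3 (1.42-fold). Falls among the 20 numbered 3 after quantile normalization or with arrays centred on their median. They numbered 1 with the Xist level in the fit or the replicate block and 0 with unequal variances. Rises numbered 6 with the Xist level in the fit. Of 14 genes listed as receptor regulators 6 rose and none fell, among them Caln1 (4.87-fold), Rgs7 (3.32-fold), Grk3 (1.92-fold) and Arrb1 (1.60-fold). The list holds genes that end or redirect signalling, such as Arrb1, a gene of the beta-arrestins, and other genes, such as Caln1. In this list 3 falls were called after quantile normalization, 2 with arrays centred on their median, 1 with array weights and 1 without the 4 dimmest arrays.

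Of 12 chaperones, clustering proteins and toxin-like modulators of nicotinic receptors 3 rose. Ly6h, a neuronal protein of the Ly6 family, rose 7.46-fold. Tmem35a, a chaperone of nicotinic receptors, rose 3.58-fold, and Ric3, a chaperone of nicotinic and 5-HT3 receptors, 1.93-fold. The genes that cluster receptors at the neuromuscular junction (Rapsn, Musk, Dok7, Lrp4 and Agrn) were not called. Of these, Musk had a log2 fold change of -0.46 (limma, adjusted p = 0.0798) and was called as a fall in 7 of 28 alternatives. Among 7 genes that make, release or break down acetylcholine, Bche, the butyrylcholinesterase gene, fell 3.64-fold, from 410 ± 68.0 (SD, n = 9) to 101 ± 21.4 (SD, n = 4), with limma's adjusted p at 1.40e-08. Ache and Chat, the genes of acetylcholinesterase and of the enzyme that makes acetylcholine, did not pass, at log2 fold changes of 0.32 and 0.08.

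Of 14 genes of monoamine synthesis, transport and breakdown, the transporter gene Slc29a4 rose 2.17-fold and Maoa, which encodes an enzyme that degrades serotonin and noradrenaline, fell 1.62-fold. The call for Maoa was lost once the level of Xist entered the fit. Of 14 genes of purine release and breakdown Panx1, a channel through which cells release ATP, rose 2.52-fold, and Pnp, Adk and Alpl fell 1.73-, 1.45- and 1.38-fold, of which Adk lost its call in 4 alternatives and Alpl in 7. For Adk these were leaving out mutant 1 (limma, adjusted p = 0.0628), the Xist level in the fit, the replicate block and unequal variances. For Alpl they were leaving out mutant 1, 2 or 3 (0.0714, 0.0523 and 0.0847), centring on reference or fibroblast genes, the replicate block and unequal variances. Of the 8 P2Y receptors, the G protein-coupled receptors of nucleotides, P2ry14, which binds UDP-sugars, rose 2.62-fold, from 220 ± 61.5 (SD, n = 9) to 592 ± 110 (SD, n = 4). P2ry13, P2ry12 and P2ry6 fell 2.19-, 1.65- and 1.60-fold, and microglia and other macrophages are known to carry all 3 of these. P2ry13 and P2ry12 lost their calls where P2rx4 did, with the replicate block and with unequal variances.

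Cell type markers moved on the same arrays. Beside the receptors that rose stand the pan-neuronal markers given above and the cortical interneuron markers, of which 7 of 8 rose (Gad1, Gad2, Slc32a1, Lhx6, Dlx1, Sst and Npy) and whose summed intensity was 5701 to 7691 in mutants and 381 to 1002 in controls. Snap25, a defining neuronal gene, was at 499 to 614 in mutants and 13.5 to 66.9 in controls. Of 9 measured markers of peripheral autonomic and sensory neurons, P2rx3 among them, 0 were called, at sums of 221 to 386 and 213 to 398. The part of neuronal RNA in the rise of the 5 receptors was not tested.

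Beside the fall of P2rx4 stand the markers of macrophages and microglia, of which 7 of 9 measured fell, P2ry12 among them, and 1, Tmem119, rose. That rise was not called with the level of Xist in the fit, with the replicate block or with unequal variances. The falls numbered 5 to 8 under the scalings tried, 6 with the level of Xist in the fit, 4 with the replicate block and 1 with unequal variances. Their summed intensity was 1981 to 3855 in mutants and 4872 to 6813 in controls, and the lowest value of any of them in a mutant was 55.8, for Aif1. Of 8 endothelial markers 5 fell, at sums of 4767 to 6237 and 6690 to 13968, and none fell once the level of Xist entered the fit. The part of either cell type in the fall of P2rx4 was not tested.

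**Figure D4:**
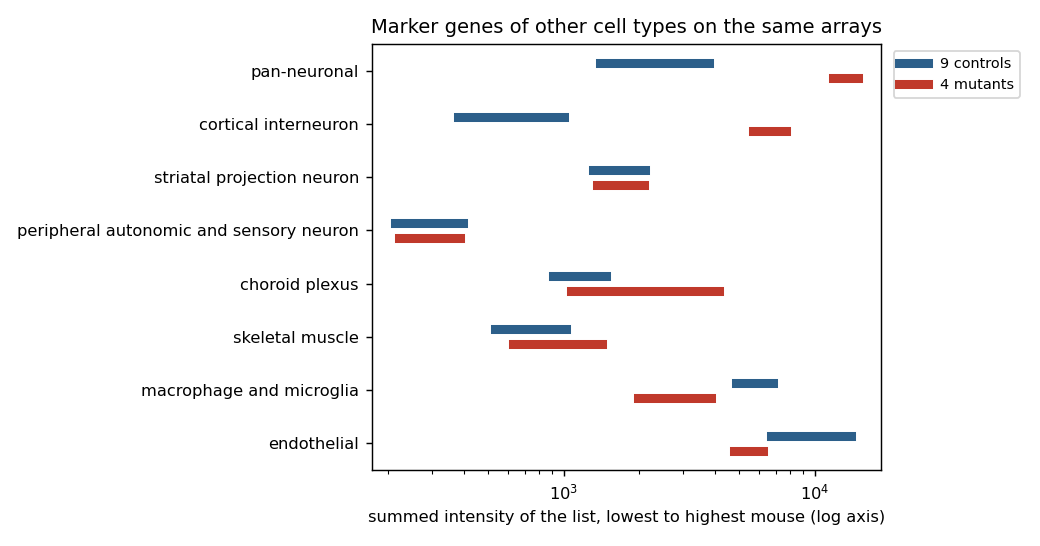
Summed linear intensity of each marker list (x axis, log scale), drawn from the lowest to the highest mouse of the 9 controls and of the 4 mutants. The pan-neuronal and cortical interneuron ranges of the mutants lie above those of the controls, the macrophage and endothelial ranges lie below them, and the other ranges drawn overlap.

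Of 10 choroid plexus markers, Htr2c among them, 1 rose and 1 fell. The defining marker Ttr was at 2840 in a single mutant and at 55.3 to 168 in the other 12 mice. Few or no calls were made in the remaining lists: 0 of 8 mural markers, 0 of 2 measured erythroid markers and, of 14 reference genes, 0 rises and 2 falls (Sdha and Gusb). Of 6 mast cell markers 2 fell (0 centred on reference or fibroblast genes or with unequal variances), of 8 astrocyte markers 3 fell (1 with the level of Xist in the fit and 0 with unequal variances), of 6 oligodendrocyte precursor markers 3 rose (sums of 624 to 867 in mutants and 264 to 607 in controls), and of 12 markers of meningeal fibroblasts, the main cells of the tissue, 2 rose and 2 fell (0 of either with unequal variances).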

How the data were processed

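Total RNA from the meninges of 13 newborn mice (4 mutants and 9 controls, grouped by genotype as labelled) was labelled and read on Mouse Gene 1.0 ST arrays (Affymetrix). The authors summarised the raw data with PLIER, of which the version and any scaling between arrays are not given in the sources used here. The deposited file gives a linear intensity for each of 35557 probe sets. They have no read depth, so the number of arrays limits the precision. Array medians differ, and no scaling was added in the comparison reported, so differences in brightness remain in the values.

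Probe sets were named from the annotation of the platform: 21789 carry 1 symbol, 1621 several and 12147 are not listed. Of the former, 21698 were matched to RefSeq. A gene was represented by its probe set with the highest mean (999 genes have several), which gave 19938 genes. The 4 mutants were compared with the 9 controls on log2(intensity + 16) with limma 3.58.1 in R 4.3.3 (lmFit and eBayes, two-sided, Benjamini-Hochberg over all genes). The fit was tested on simulated data. Figures were drawn with matplotlib 3.10.9.

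Every receptor gene with a measured probe set is named, with values per mutant for those called, and of each other list up to 4 genes with the smallest adjusted p, apart from marker lists, which are mostly given by counts. Adcy5, Plcb3, Ache, Chat, Ttr, Tmem119, the genes of the neuromuscular junction and the cell type markers beyond the first 4 of a list were named after their values were seen. The receptors, lists and tests were chosen with earlier results of these data known. The alternatives were other log constants (1 and 32), quantile normalization, centring of arrays on their median, reference genes or meningeal fibroblast genes, array weights, an intensity trend with robust variances, filters on dim genes, the average over probe sets of 1 gene, a covariate for Xist, a block for the replicate number, equal and unequal variances, the methods' t-test with a fold over 2, leaving out each mouse and leaving out the 4 dimmest arrays. Mice with the same replicate number did not deviate together (correlations of -0.34, 0.16, 0.31 and -0.09), and the numbers were therefore not used to pair the mice. The litter is shared, and p-values measure the spread between these pups.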

Additional observations from a re-analysis of the deposited data

Results flagged for a closer look

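Within a group, the gap between the most extreme mouse and its nearest neighbour was large beside the range of the group for 2 of 98 groups of receptor values (49 genes in mutants and in controls). Chance gives about 1 in 20 where groups are independent. These groups share the same arrays, so the count cannot be judged against that rate. Chrna5 was at 34.7 in mutant 4 and at 25.4 to 26.0 in the other mutants, a gap of 0.930 of the range. Without mutant 4 its log2 fold change was 0.30 in place of 0.37 (limma, adjusted p = 0.193). Chrnb1 was at 69.7 in control 3 and at 90.0 to 114 in the other controls, a gap of 0.508 of the range. Without control 3 its log2 fold change was -0.07 in place of -0.02.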

How the results depend on the processing

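Htr3a, Chrm3, Chrnb2 and Chrm2 kept their direction and their call under every alternative in which they were tested, at log2 fold changes of 2.35 to 3.41, 2.11 to 2.88, 0.85 to 1.76 and 0.87 to 1.65. Htr2a lost its call with the replicate block alone. P2rx4 lost it with the replicate block and with unequal variances. No call changed sign. Htr3a, Chrnb2 and Chrm2 are not in the run on genes above the olfactory receptor level, where 2 receptor genes rose. Those, Chrm3 and Htr2a, pass that level only with the mutants counted. The receptor genes that rose numbered 3 without the dimmest 25% of genes (33 of the 49 tested), 0 without the dimmest 50% (7 tested) and 4 with the replicate block. Those that fell numbered 6 with quantile normalization, with arrays centred on their median and with array weights and 3 without the 4 dimmest arrays, and 0 with the replicate block, with unequal variances and with the methods' t-test, before and after Benjamini-Hochberg. Falls gained under these settings were of Adra1b and Drd3 (4 settings each), Chrna6 (3), P2rx7 (2), Chrm5, Chrna10, Drd2 and Htr1b (1 each). Rises gained were of Chrna5 (6 settings, centring on reference or fibroblast genes among them) and Htr1a (1). Leaving out 1 mouse gave 5 to 6 receptor genes that rose and 1 that fell.

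Over all tested genes, 2668 rose and 3617 fell after quantile normalization, 2956 rose centred on reference genes, 3980 rose and 759 fell centred on fibroblast genes, 2862 fell centred on the array median, 2023 fell with array weights, 605 fell with the Xist level as a covariate, 545 fell with the replicate block and 1139 rose and 400 fell with unequal variances, against 1710 and 1258. The methods' t-test with a fold over 2 gave 653 rises and 159 falls, and 649 and 153 after Benjamini-Hochberg. Leaving out 1 mouse gave 777 to 1490 falls, the lowest without mutant 3 (777) and mutant 1 (778). Centring on reference genes moved the median of all tested genes to 0.12 and that of the receptors to 0.13 (log2), centring on fibroblast genes to 0.22 and 0.23, and array weights to -0.11 and -0.17. The fall of Pdgfc lost its call in 4 settings (log constant 1, intensity trend, replicate block and equal variances). The replicate block rests on the 4 mutants and controls 1 to 4. The cause of these differences was not tested.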
